A study of Mus musculus with 6 samples.

Results

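The genes described here are 35 lysosomal genes, of 55487 genes in the deposited count table, named by symbol. Of these, 28 are grouped by the substrate they help break down or move, mostly hydrolases of the lysosome's lumen and their partners but also the membrane protein Npc1, and 7 are grouped as proteins of its membrane. They were picked by name, with earlier results of these data known, and each was found once by matching its Ensembl ID to GENCODE M21. RNA sequencing was done on RAW264.7, a line of mouse macrophage-like cells from which RANKL, with M-CSF for growth, can raise osteoclast-like cells. One group of 3 libraries is labelled as RhoA knockout made with SMART-Cas9, with RANKL/M-CSF treatment. The other 3 libraries, labelled control, are of wild type genotype in the same line, also with RANKL/M-CSF treatment. RhoA is a small GTPase that sets actin tension, and the study asked what its loss in macrophages does in the setting of rheumatoid arthritis. No label describes a control that had Cas9 or the carrier alone, the control cells are called untreated in the design text, and nothing says whether the replicates were grown separately. The p-values therefore measure the spread between these libraries, which may be technical.

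Lysosomes are acidic compartments in which hydrolases break down lipids, sugar chains, proteins and glycogen taken up from outside or delivered by autophagy. Most of these enzymes are made in the endoplasmic reticulum, tagged with mannose 6-phosphate in the Golgi and carried to the lysosome by mannose 6-phosphate receptors, and each removes one kind of group from a chain that the next enzyme continues. Loss of a single enzyme or membrane protein leaves its substrate in the lysosome and causes a storage disease, such as Tay-Sachs disease for HEXA in humans. Macrophages hold many lysosomes for digesting what they engulf, and osteoclasts send theirs to the bone surface.

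Many lysosomal genes carry in their promoters a motif that TFEB and its relatives bind, known as the CLEAR element, whose core TCACGTGA contains the E-box CACGTG. Promoter windows from RefSeq (GRCm38.p6), from 250 bases before to 50 after the start, were available for 32 of the 35 genes. Galns, Npc1 and Asah1 had none. The E-box stood in a window of 9 of these 32 genes (28.1%), against 8.09% of all 27025 genes with a window; some genes have more than 1. The full core stood in a window of 3 of the 32 genes (9.38%), Cln3, Gla and Mcoln1, against 1.12% of all genes. Both motifs read the same on either strand, and every core also counts as an E-box. The stretches below show the E-box in capitals, 5′ to 3′ on the gene's own strand, and were chosen because they hold the repeats in Lamp1, all the full cores, and the E-boxes of 2 heparan sulfate enzymes that moved in opposite directions, Naglu and Sgsh.
Lamp1: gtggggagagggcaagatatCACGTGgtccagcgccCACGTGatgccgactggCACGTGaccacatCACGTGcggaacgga
Cln3: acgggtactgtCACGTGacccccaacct
Mcoln1: ggcgccccgctCACGTGaccgcggcgca
Gla, farther from the start: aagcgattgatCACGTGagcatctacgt
Gla, nearer to the start: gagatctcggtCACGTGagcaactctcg
Naglu: aaccttcaggtCACGTGgcccgaggtcg
Sgsh: ggcctgccgtgCACGTGaccgtggggag
The Lamp1 stretch is the 81 bases just before the start, chr8:13159080-13159160 on the plus strand, and holds 4 E-boxes. The others are 28 bases each: Cln3 at chr7:126583341-126583368 on the minus strand, Mcoln1 at chr8:3500463-3500490 on the plus strand, Gla at chrX:134601216-134601243 and chrX:134601183-134601210 on the minus strand, Naglu at chr11:101070010-101070037 on the plus strand and Sgsh at chr11:119355523-119355550 on the minus strand. Read against the expression calls given next, the E-box was found for 1 of the 13 genes with a window that rose, 3 of the 5 that fell and 5 of the 14 not called. The full core was found for 0, 1 and 2 of those genes. A match describes letters in a window, not a bound site.

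Rhoa, the targeted gene, showed no fall in RNA. Its level was 34.2, 29.9 and 31.5 CPM in the libraries labelled RhoA knockout (CPM are counts scaled to library size, here with TMM factors), against 21.4, 25.8 and 24.4 CPM in the control libraries. The log2 fold change was 0.41 ± 0.12 (SE), with edgeR's adjusted p = 0.0136. The call ended without control replicate 1 (0.34, adjusted p = 0.0645) and without the labelled knockout replicate 1 (0.34, adjusted p = 0.0741). It also ended with a filter of 10 CPM in 3 libraries (0.15, adjusted p = 0.285). RNA level alone does not show whether an edit changed the protein, so the first group is called by its label throughout. Library totals were between 71777994 and 81830819 for the group labelled RhoA knockout and between 60198645 and 79918899 for the control group, in counts. The 10 most abundant genes held 43.1% to 46.8% of the counts in the libraries labelled RhoA knockout and 59.6% to 61.0% in the controls. Replicate 3 of each group stood apart from the other 2, with a gene-wise chi-square per degree of freedom of 80.8 to 100.9 in the labelled knockout group and 89 to 99.9 in the control group, against 26.3 and 20.7 between replicates 1 and 2 of those groups. Of 10 macrophage markers, 9 were tested, with 2 higher and 5 lower, and their summed level, mostly Lyz2, was 78100 to 110000 CPM in the group labelled RhoA knockout, against 16700 to 18700 CPM in the controls. Of 10 osteoclast markers, 7 were tested, with 2 higher and 3 lower. Their summed level was 27.3 to 27.5 CPM in the group labelled RhoA knockout and 24.3 to 27.7 CPM in the controls, and Calcr and Oscar had no count. In bulk RNA, a change in the number of cells of a type and a change in RNA per cell cannot be told apart. Mitochondrial genes held 9.95% to 12.26% of the counts in the group labelled RhoA knockout and 7.01% to 8.69% in the controls. Single RNAs used as signs of RNA quality moved in both directions: mt-Nd1 was 19.6-fold and mt-Cytb 14-fold higher in the group labelled RhoA knockout (adjusted p = 3.01e-09 and 9.56e-09), while mt-Co1 stood at 0.4 times the control level, and the nuclear RNAs Neat1 and Malat1 at 0.345 and 0.682 times (adjusted p = 6.86e-06, 2.03e-06 and 0.0154). The part of these markers and RNAs in the lysosomal results was not tested.

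Several of the most abundant lysosomal RNAs were much higher in the libraries labelled RhoA knockout, while a smaller group fell. The genes that rose most were Gm2a, Laptm5, Fuca1, Arsb, Gusb, Hexa and Psap, and those that fell most were Npc1 and Cln3. All 35 genes passed the filter on low counts. Of them 14 were higher and 7 lower at an adjusted p under 0.05 (edgeR, adjusted over 12930 genes), and 14 were not called. Over all genes tested, 43.2% were called, 21.0% higher and 22.3% lower, so the share that fell (20%) was near the background, while the share that rose (40%) was above it. The lysosomal genes are also more abundant than most, with a median average log2 CPM of 4.04 against 1.76 over all genes tested. Among the 3732 genes at 10 CPM or more in at least 3 libraries, 45.3% were called higher and 26.5% lower, and of the 24 lysosomal genes at that level 50% were higher and 20.8% lower. A gene can reach that level in the libraries of a single group, so this background is not independent of the changes. Nor is abundance matched exactly. Against that set the count of rises was near the background, and the counts are not a result about the lysosomal genes. With library totals in place of TMM, which moved the median of all genes to 0.15, only Npc1 and Cln3 of the 7 were still called lower, Galns, Naglu, Neu1, Gaa and Grn were not, and 16 of the 35 were called higher. With a filter of 10 CPM in 3 libraries and TMM recomputed, Asah1, Lipa, Acp2 and Scarb2 were no longer called higher, while Npc2, Ppt1, Lamp1 and Lamp2 were called lower, at -0.54, -0.37, -0.53 and -0.40 (adjusted p = 0.000393, 0.00198, 0.00122 and 0.00204).

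The median log2 fold change of the 35 was 0.16, against -0.03 over all genes tested, with a range from -1.82 to 2.11. In 27 of the 35 (77.1%) the 3 libraries of one group all lay outside the range of the other, 15 with the libraries labelled RhoA knockout on top and 12 with them below. Over all genes tested, that held for 55.8%. The share among genes of like abundance was not computed, so the difference cannot be read as particular to the lysosomal genes. Of all counts, the 35 genes together took 0.689%, 0.687% and 0.647% in the group labelled RhoA knockout and 0.335%, 0.330% and 0.324% in the control group. Cd68 alone made up 52.8% of these counts in the libraries labelled RhoA knockout and 39.0% in the controls, so the sum mostly follows a few genes. Among the counts outside the 10 most abundant genes, the 35 took 1.21% to 1.24% in the libraries labelled RhoA knockout and 0.800% to 0.847% in the controls.

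**Figure D1:**
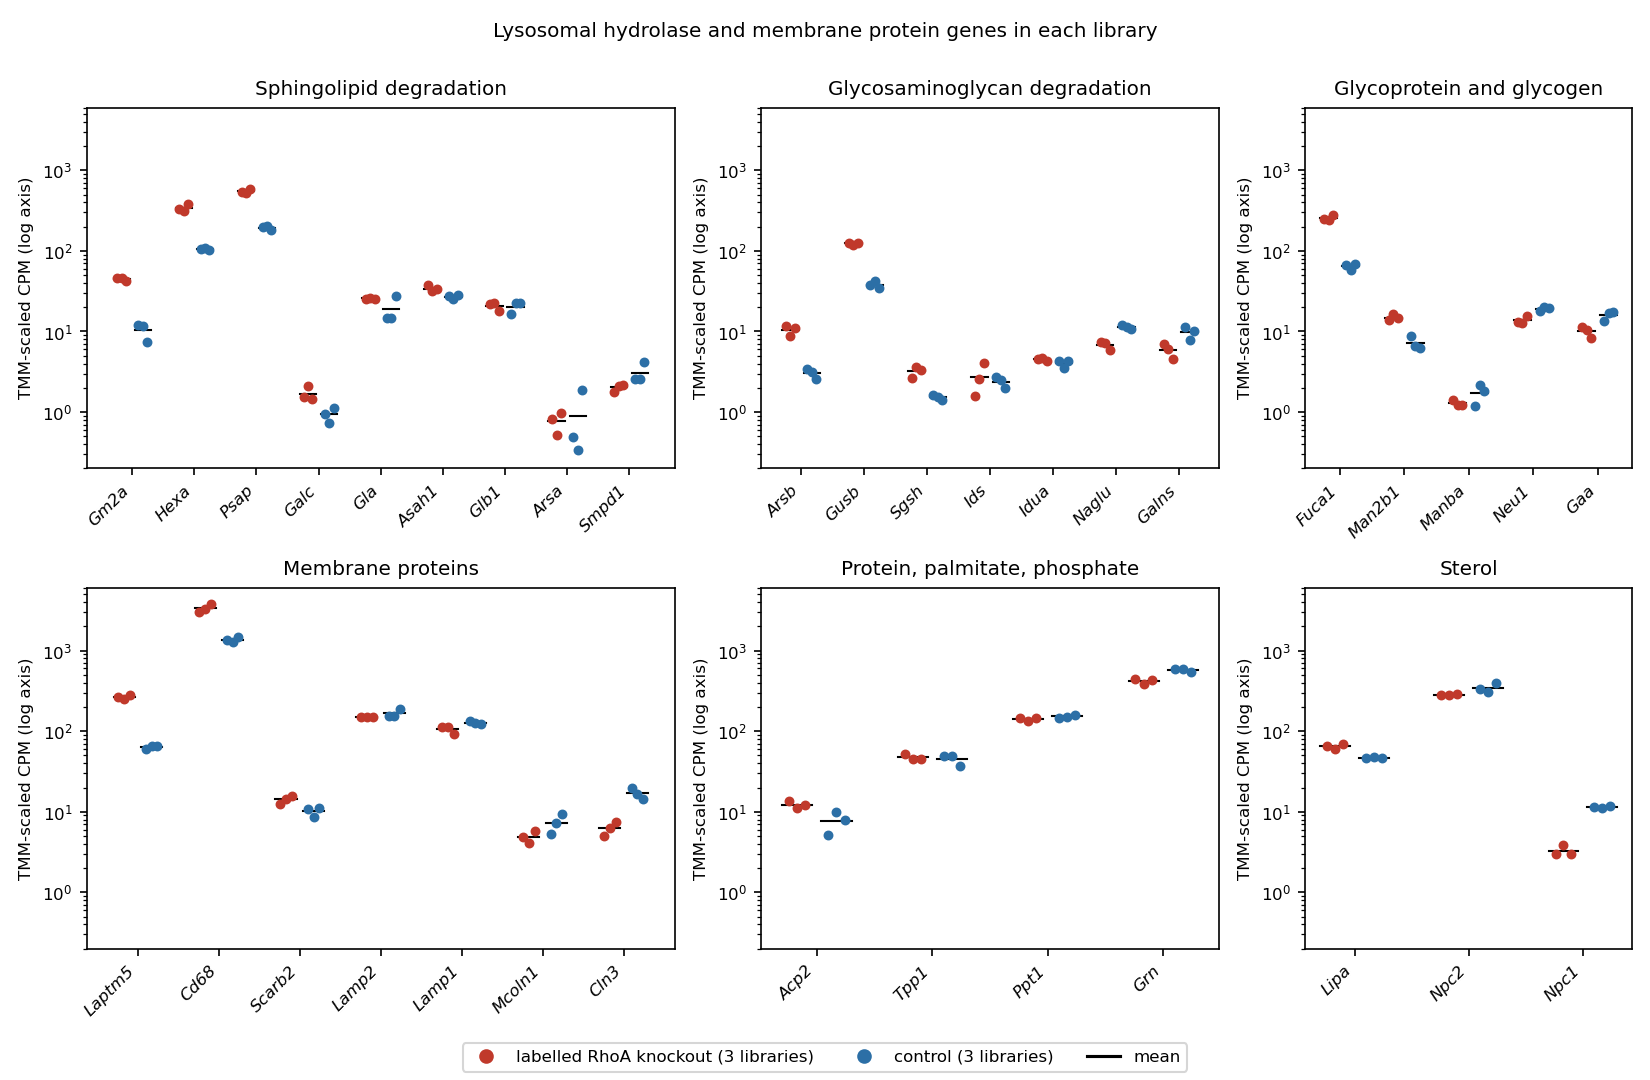
CPM on a log axis for each of the 35 genes in each of the 6 libraries, with the libraries labelled RhoA knockout and the control libraries in separate colours and the genes grouped by substrate class. Hexa, Psap, Gm2a, Gusb, Arsb, Fuca1, Laptm5 and Cd68 show 3 points clear above the controls, Npc1 and Cln3 show 3 points clear below, and Arsa, Ids and Gla show wide spread within a group.

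Levels per length of exon show which RNAs dominate. In the libraries labelled RhoA knockout the order by CPM per kb of exon was led by Cd68 at 2680, then Psap at 201, Hexa at 171, Grn at 121, Fuca1 at 78.8 and Laptm5 at 70.8. In the control libraries it was Cd68 at 1090, Grn at 165, Psap at 71.0, Npc2 at 63.3, Hexa at 53.1 and Lamp1 at 47.8. Grn was thus above Psap in the controls and below it in the libraries labelled RhoA knockout.

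In sphingolipid breakdown, the class with the most genes, 4 of 9 rose (44.4%), none was called lower, and the median log2 fold change was 0.45. Rises made up 21.0% of all genes tested and 45.3% of abundant ones, so this share is near that of abundant genes. Its summed level was 999, 967 and 1098 CPM in the group labelled RhoA knockout, against 376, 393 and 379 CPM in the control libraries, mostly from Psap and Hexa. Gm2a encodes the GM2 activator, the protein that lifts GM2 ganglioside out of the membrane so that the enzyme can reach it. It stood at 46.2, 45.55 and 41.9 CPM in the group labelled RhoA knockout, against 11.9, 11.7 and 7.35 CPM in the controls. The groups were far apart, and the log2 fold change was 2.11 ± 0.17 (adjusted p = 1.69e-06), the largest of the 35. Hexa, the alpha chain of beta-hexosaminidase A, which then removes the terminal sugar of GM2, was measured at 327, 315 and 380.4 CPM in the group labelled RhoA knockout, against 105, 109 and 104 CPM in the controls. Its change was 1.68 ± 0.11 (adjusted p = 3.23e-07). Psap, the precursor of the saposins that serve several of the other sphingolipid enzymes, had 537.5, 521 and 594 CPM in the group labelled RhoA knockout, against 196, 206 and 182.5 CPM in the controls, a change of 1.50 ± 0.11 (adjusted p = 8.37e-07). The activator, the enzyme chain and the saposin precursor thus all rose, with no library of one group inside the range of the other. Such a lack of overlap held for 55.8% of all genes tested, and that background also applies to the genes below.

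The other sphingolipid genes changed little or were not called. Asah1, acid ceramidase, was higher by 0.34 ± 0.11 (adjusted p = 0.0319). That call ended without control replicate 1 (0.36, adjusted p = 0.0656), without control replicate 2 (0.26, 0.139), without the labelled knockout replicate 1 (0.25, 0.159) and without replicate 2 (0.37, 0.0534). Galc, which removes galactose from galactosylceramide, changed by 0.86 ± 0.37 on the log2 scale without being called (adjusted p = 0.0797), and was called with library totals in place of TMM (1.05, adjusted p = 0.0454). It held at most 2.09 CPM in any library, and its groups did not overlap. Its overlap with the antisense gene Gm47439, which held up to 19.7% of its count, makes it less certain. Gla, alpha-galactosidase A, was 25.5, 26.3 and 25.6 CPM in the group labelled RhoA knockout, against 14.6, 14.8 and 27.4 CPM in the controls (0.45 ± 0.21, adjusted p = 0.114). Without control replicate 3 its change was 0.81 and called (adjusted p = 0.000351), and with library totals in place of TMM it was also called, at 0.64 (adjusted p = 0.0327). Smpd1, acid sphingomyelinase, was -0.60 ± 0.29 (adjusted p = 0.124), Glb1, beta-galactosidase, 0.02 ± 0.15 (adjusted p = 0.920) and Arsa, arylsulfatase A, -0.23 ± 0.64 (adjusted p = 0.797). For Arsa the controls alone spread 5.46-fold, from 0.342 to 1.87 CPM, and an antisense gene, C230037L18Rik, held up to 30.0% of its count.

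Of 7 genes for glycosaminoglycan breakdown, 3 rose (42.9%), 2 fell (28.6%) and 2 were not called, with a median log2 fold change of 0.19. Over all genes tested, 21.0% rose and 22.3% fell. Of abundant ones 45.3% rose and 26.5% fell, so these shares are near those of abundant genes. The counts of the classes that follow have the same background and are not a result about a class. Gusb, beta-glucuronidase, which acts on hyaluronan, chondroitin and heparan chains alike, was the most abundant of them at 126.5, 118 and 127 CPM in the group labelled RhoA knockout, against 37.4, 42.3 and 34.5 CPM in the controls. Its change was 1.70 ± 0.11 (adjusted p = 2.75e-07). Arsb, which removes sulfate from dermatan and chondroitin sulfate, was at 11.5, 8.90 and 10.9 CPM in the group labelled RhoA knockout, against 3.43, 3.13 and 2.60 CPM in the controls (1.77 ± 0.19, adjusted p = 1.57e-05). Both rises were clear of the control range in every library. Galns, a sulfatase for keratan sulfate and chondroitin 6-sulfate, went the other way, with 6.97, 6.06 and 4.62 CPM in the group labelled RhoA knockout, against 11.2, 7.74 and 10.3 CPM in the controls (-0.73 ± 0.21, adjusted p = 0.0128). Its call ended without control replicate 1 (-0.61, adjusted p = 0.0668) and without the labelled knockout replicate 3 (-0.57, 0.0521).

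For heparan sulfate breakdown, Sgsh, which removes sulfate from the glucosamine, was at 2.68, 3.65 and 3.33 CPM in the group labelled RhoA knockout, against 1.63, 1.55 and 1.41 CPM in the controls (1.07 ± 0.28, adjusted p = 0.00778). Naglu, which removes the N-acetylglucosamine 2 steps later, was at 7.47, 7.09 and 5.93 CPM in the group labelled RhoA knockout, against 11.9, 11.3 and 10.6 CPM in the controls (-0.72 ± 0.16, adjusted p = 0.00292). Hgsnat, the membrane enzyme that acetylates the glucosamine between those steps, is not one of the 35 and was chosen here after its values were seen. It fell to 2.99, 4.68 and 3.31 CPM in the group labelled RhoA knockout, against 8.89, 9.09 and 7.53 CPM in the controls (-1.22 ± 0.21, adjusted p = 0.000602). Ids and Idua, which remove the sulfate and then the iduronic acid, were not called, at 0.19 ± 0.35 (adjusted p = 0.704) and 0.16 ± 0.21 (adjusted p = 0.577). Ids varied 2.60-fold among the libraries labelled RhoA knockout, from 1.56 to 4.06 CPM, and replicate 3 held the highest value. Card14, which overlaps Sgsh on the other strand, held up to 13.4% of the Sgsh count, and its counts were highest in the libraries labelled RhoA knockout.

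Glycoprotein and glycogen breakdown gave 2 rises, 2 falls and 1 gene not called, with a median log2 fold change of -0.42. Fuca1, the lysosomal alpha-fucosidase, had 252, 244 and 279.6 CPM in the group labelled RhoA knockout, against 67.0, 58.7 and 69.5 CPM in the controls, a change of 1.99 ± 0.11 (adjusted p = 9.84e-08). Man2b1, lysosomal alpha-mannosidase, had 13.7, 16.4 and 14.5 CPM in the group labelled RhoA knockout, against 8.73, 6.58 and 6.24 CPM in the controls (1.05 ± 0.17, adjusted p = 0.000331). No library of either group entered the other's range for these 2 genes. Neu1, the sialidase that starts glycan breakdown, was lower, with 12.95, 12.8 and 15.45 CPM in the group labelled RhoA knockout, against 18.04, 20.1 and 19.6 CPM in the controls (-0.49 ± 0.13, adjusted p = 0.00983). Gaa, acid alpha-glucosidase, the enzyme for glycogen, was lower too, with 11.4, 10.4 and 8.30 CPM in the group labelled RhoA knockout, against 13.6, 16.98 and 17.2 CPM in the controls (-0.67 ± 0.16, adjusted p = 0.00546). Manba, beta-mannosidase, was low in all libraries, at 1.21 to 1.41 CPM in those labelled RhoA knockout and 1.18 to 2.15 CPM in the controls (-0.42 ± 0.35, adjusted p = 0.366). The summed level of the class, 291, 284 and 319 CPM in the group labelled RhoA knockout and 109, 104.5 and 114 CPM in the controls, is mostly Fuca1 and does not speak for the other 4 genes.

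Of the 3 sterol genes, 1 rose, 1 fell and 1 was not called. Npc1, the membrane protein that takes cholesterol from Npc2 and passes it out of the lysosome, was at 2.96, 3.84 and 2.98 CPM in the group labelled RhoA knockout, against 11.3, 11.2 and 11.9 CPM in the controls. It fell by 1.82 ± 0.18 on the log2 scale (adjusted p = 6.67e-06), the largest fall of the 35. Npc2, the soluble carrier that hands cholesterol to it, was at 283, 281 and 290.3 CPM in the group labelled RhoA knockout, against 335, 303 and 394 CPM in the controls, and was not called (-0.27 ± 0.12, adjusted p = 0.0821). Without control replicate 2 it was called at -0.38 (adjusted p = 0.0382). Lipa, acid lipase, which frees cholesterol and fatty acids from their esters, was at 65.3, 59.8 and 68.7 CPM in the group labelled RhoA knockout, against 46.4, 48.3 and 46.5 CPM in the controls (0.46 ± 0.10, adjusted p = 0.00305). Npc1 overlaps Rmc1 on the opposite strand over 511 bases, and Rmc1 held up to 224% of Npc1's count. Rmc1's own counts in the libraries labelled RhoA knockout were 545, 585 and 362, and those in the controls were 505, 380 and 371. Whether the counting used strand is not given in the sources used here, so reads of the 2 genes in the overlap cannot be told apart.

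Among the genes for proteins, palmitate and phosphate, 1 rose, 1 fell and 2 were not called. Grn, the progranulin precursor, whose granulins form in the lysosome, was at 438, 388 and 438 CPM in the group labelled RhoA knockout, against 591, 585 and 541 CPM in the controls (-0.44 ± 0.11, adjusted p = 0.00606). Ppt1, which removes palmitate from proteins, was at 145, 134 and 146 CPM in the group labelled RhoA knockout, against 146, 152 and 159 CPM in the controls. Its difference of -0.10 ± 0.10 was not called (adjusted p = 0.431), and with library totals in place of TMM it was 0.07. Cap1 overlaps Ppt1 on the opposite strand over 129 bases. Cap1 had 4581, 4474 and 2944 counts in the group labelled RhoA knockout and 8235, 5865 and 6533 counts in the control group. The part of Cap1 in the Ppt1 values was not tested. Tpp1, a tripeptidyl peptidase, was at 44.6 to 52.2 CPM in the libraries labelled RhoA knockout and 37.2 to 49.2 CPM in the controls (0.07 ± 0.13, adjusted p = 0.680). Acp2, lysosomal acid phosphatase, was at 13.8, 11.01 and 12.0 CPM in the group labelled RhoA knockout, against 5.20, 9.81 and 7.97 CPM in the controls (0.68 ± 0.21, adjusted p = 0.0224). That call ended without control replicate 1 (0.47, adjusted p = 0.0730), without the labelled knockout replicate 1 (0.57, 0.0998) and without replicate 3 (0.71, 0.0520). Acp2 overlaps Ddb2, which held up to 22.3% of its count and had 108, 185 and 203 counts in the group labelled RhoA knockout and 35, 64 and 23 counts in the control group. Its part in the Acp2 difference was not tested.

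Of the 7 membrane proteins, 3 rose, 1 fell and 3 were not called, with a median log2 fold change of -0.14. Cd68, a heavily glycosylated protein of late endosomes and lysosomes used as a macrophage marker, was at 3025, 3253 and 3830.0 CPM in the group labelled RhoA knockout, against 1347, 1291 and 1460.0 CPM in the controls (1.30 ± 0.13, adjusted p = 8.10e-06). Laptm5, a membrane protein of immune cells that takes receptors to the lysosome, was at 269, 253 and 283 CPM in the group labelled RhoA knockout, against 59.5, 66.0 and 65.8 CPM in the controls (2.07 ± 0.11, adjusted p = 4.65e-08). Both are typical of macrophages and other leukocytes. Macrophage markers as a list moved in both directions: of 9 tested, 2 were higher and 5 lower. The rises were Lyz2 and Csf1r, with log2 fold changes of 2.39 and 1.17. The falls included Itgam and Fcgr1, with log2 fold changes of -2.01 and -1.91. Whether Cd68 and Laptm5 moved with cell type or state was not tested. Cln3, mutated in juvenile Batten disease in humans, fell to 4.95, 6.26 and 7.40 CPM in the group labelled RhoA knockout, against 19.8, 16.7 and 14.2 CPM in the controls (-1.45 ± 0.19, adjusted p = 5.76e-05). Apobr, which overlaps Cln3 on the opposite strand, held up to 70.0% of its count, and had 239, 247 and 394 counts in the group labelled RhoA knockout and 366, 287 and 246 counts in the control group.

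The other membrane proteins of this class changed less than Cd68, Laptm5 and Cln3. Lamp1 was at 113, 114 and 91.5 CPM in the group labelled RhoA knockout, against 134, 126 and 124 CPM in the controls, and was not called (-0.27 ± 0.11, adjusted p = 0.0746), although the groups did not overlap. Lamp2 was at 149, 151 and 151 CPM in the group labelled RhoA knockout, against 155, 155 and 188 CPM in the controls (-0.14 ± 0.11, adjusted p = 0.324), with a sign that turned to 0.04 with library totals and to 0.33 with a length-dependent offset. Scarb2, a membrane protein that serves as a transport receptor to the lysosome, was higher by 0.49 ± 0.16 (adjusted p = 0.0238). Its call ended without control replicate 2 (0.36, adjusted p = 0.108), without the labelled knockout replicate 2 (0.46, 0.0820) and without replicate 3 (0.43, 0.0795). Mcoln1, the calcium channel of the lysosomal membrane, had a difference of -0.58 ± 0.23 (adjusted p = 0.0643), and was called at -0.76 without control replicate 1 (adjusted p = 0.0270).

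**Figure D2:**
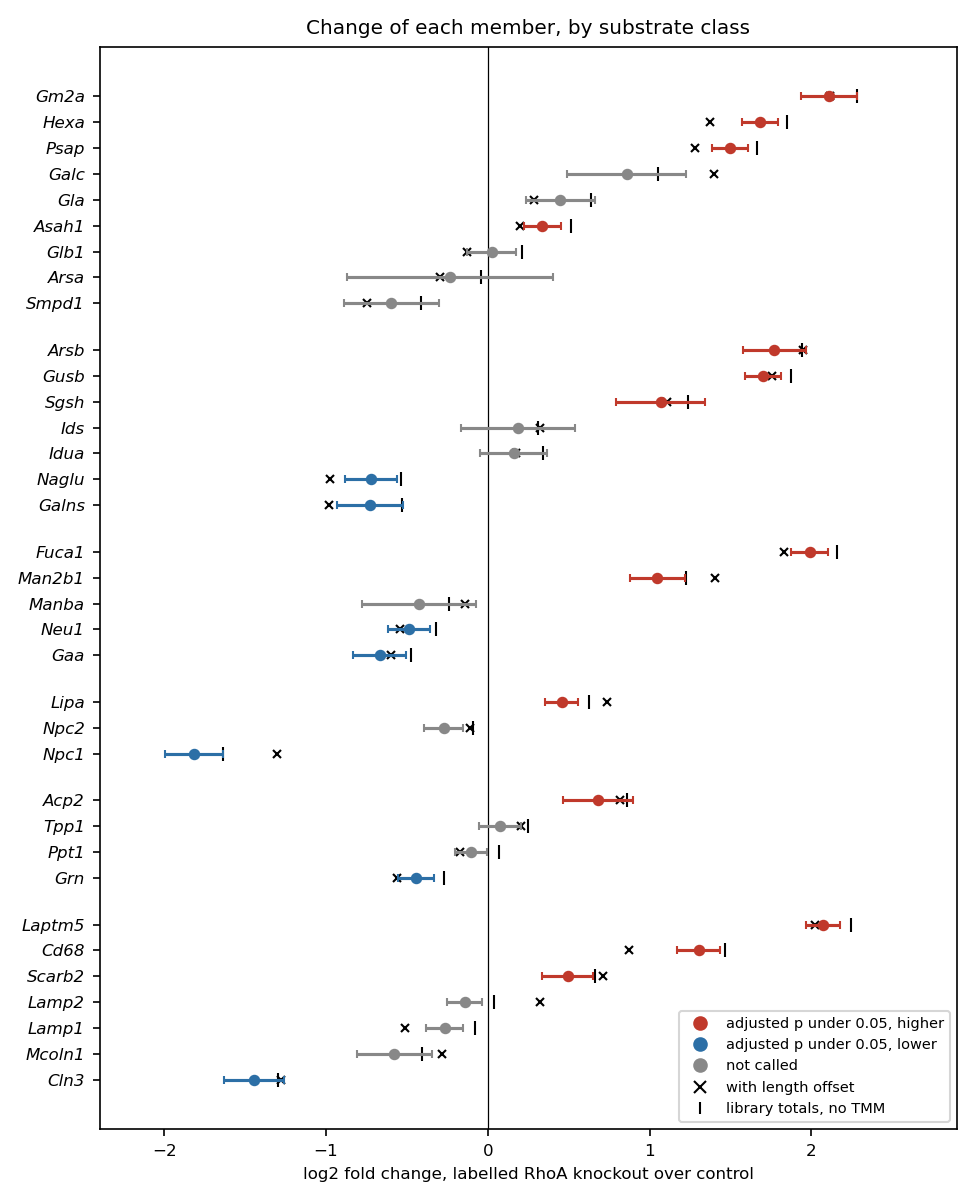
Log2 fold change of each of the 35 genes, libraries labelled RhoA knockout over control, with bars of 1 SE, grouped by substrate class and coloured by whether the gene was called at an adjusted p under 0.05, with crosses for the length-dependent offset and ticks for library totals in place of TMM. Gm2a, Laptm5 and Fuca1 lie near 2, Npc1 lies at -1.82 and Cln3 at -1.45, and every class holds points on both sides of 0.

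The ratio of 2 genes within a library does not depend on how libraries are scaled, so 6 pairs of partners were compared that way with a two-sided exact permutation test. With 3 libraries a group, the smallest p this test can give is 0.1, so it cannot reach 0.05 for any pair. Psap and Grn proteins bind each other, and progranulin is carried with prosaposin to the lysosome. Their count ratio was 1.23, 1.34 and 1.36 in the group labelled RhoA knockout, set against 0.332, 0.352 and 0.337 in the control group (exact p = 0.1). The ratio of Npc2 to Npc1 was 95.4, 73.3 and 97.3 in the group labelled RhoA knockout, set against 29.6, 26.9 and 33.1 in the control group (exact p = 0.1). Ctsa, which protects and activates Neu1 in a shared complex, stood at 214, 215 and 230.0 times the count of Neu1 in the group labelled RhoA knockout, set against 32.4, 29.5 and 32.2 times in the control group (exact p = 0.1). In all these pairs no control library reached the lowest value of the group labelled RhoA knockout.

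Other partners stayed closer. The ratio of Gm2a to Hexa was 0.132 ± 0.019 in the libraries labelled RhoA knockout and 0.0971 ± 0.0232 in the controls (SD, n = 3 each, exact p = 0.2). Glb1 to Neu1 was 1.53 ± 0.33 in the libraries labelled RhoA knockout and 1.05 ± 0.126 in the controls (exact p = 0.1), and the lowest value of the first was barely above the highest of the other. Lamp2 to Lamp1 was 1.43 ± 0.191 in the libraries labelled RhoA knockout and 1.30 ± 0.194 in the controls (exact p = 0.5). With all 6 pairs as one family, no adjusted p can be lower than the smallest raw p of 0.1.

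**Figure D3:**
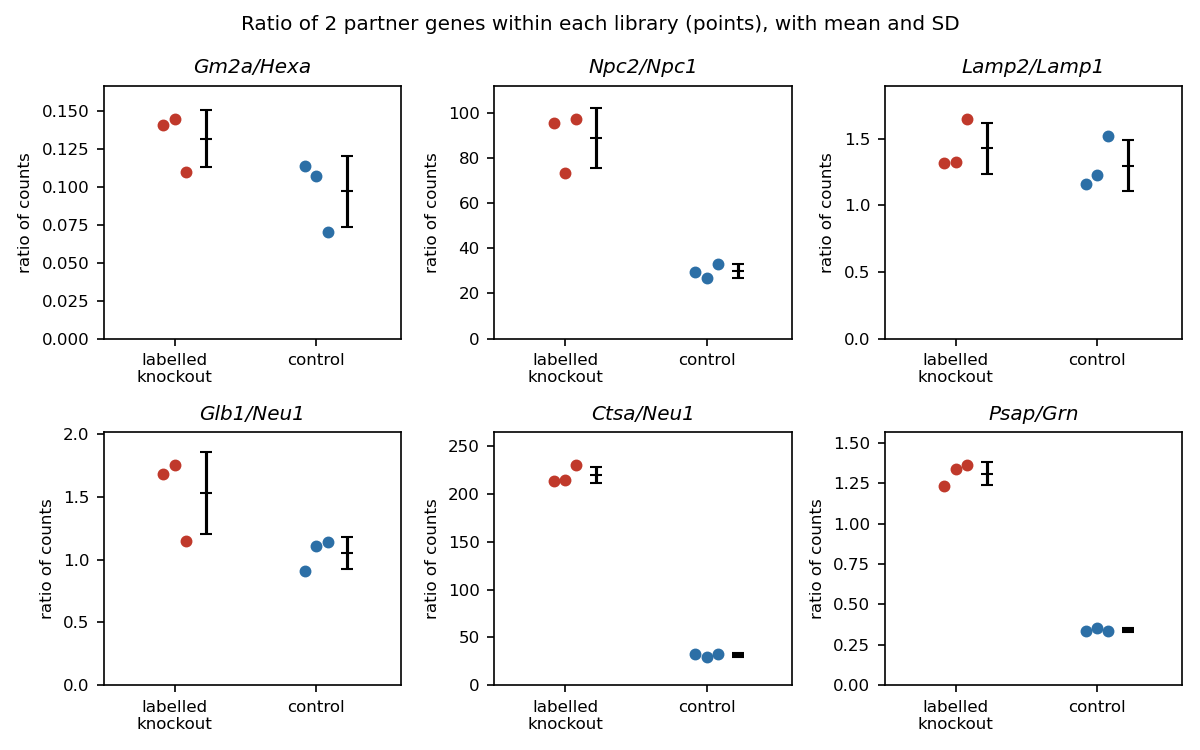
Count ratio of 6 pairs of partner genes in each library, with the libraries labelled RhoA knockout left of the control libraries in each panel and black bars for the mean ± SD (n = 3 each). The Psap to Grn, Npc2 to Npc1 and Ctsa to Neu1 ratios are well separated, and the Gm2a to Hexa and Lamp2 to Lamp1 ratios overlap between the groups.

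Genes that serve the lysosome beyond the 35 were described from 5 lists, 140 genes in all, of which 135 were tested: 29 rose, 36 fell, and the median log2 fold change was -0.07. Against the background of 21.0% and 22.3%, the shares were 21.5% higher and 26.7% lower. The counts of each list below have the same background. With library totals in place of TMM, 37 were called higher and 21 lower. The length-dependent offset gave 29 higher and 29 lower, with a median of 0.001. Of the 29 rises and 36 falls of the main fit, 26 and 24 were still called with it. In the main fit, the list with the most uneven split was that of other membrane proteins and transporters. Of its 34 tested genes, 2 rose (5.88%) and 14 fell (41.2%), with a median of -0.49. The split of each list with library totals or with the length-dependent offset was not computed. Slc15a3, a lysosomal histidine and peptide transporter of immune cells, fell to 7.97, 8.43 and 8.43 CPM in the group labelled RhoA knockout, against 158, 154 and 228 CPM in the controls (-4.44 ± 0.17, adjusted p = 5.11e-09). Abcd4, a vitamin B12 transporter of the lysosome, and Mcoln2, a relative of Mcoln1, fell by 2.12 (adjusted p = 2.60e-06) and 1.65 (adjusted p = 5.49e-05). Cd63, a tetraspanin of late endosomes, and Ctns, the cystine exporter, were the genes of that list that rose, by 0.68 (adjusted p = 0.00600) and 0.98 (adjusted p = 0.0123). The Ctns call ended without the labelled knockout replicate 1 (0.91, adjusted p = 0.0504) and without replicate 2 (0.90, 0.0519), and Cd63 shares sequence with the pseudogene Cd63-ps, whose count was 13.6% of its own at most.

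Other hydrolases and their relatives, 28 genes with 27 tested, gave 9 rises and 6 falls with a median of 0.25. Ctsa, the serine carboxypeptidase named protective protein, was at 2774, 2751 and 3550.0 CPM in the group labelled RhoA knockout, against 585, 593 and 629.7 CPM in the controls (2.33 ± 0.14, adjusted p = 1.54e-07). Smpdl3a and Smpdl3b, relatives of acid sphingomyelinase, rose by 2.92 (adjusted p = 4.46e-08) and 1.69 (adjusted p = 6.06e-07). Smpd1 itself was not called, as given above. Pla2g15, the lysosomal phospholipase A2, fell by 1.67 (adjusted p = 6.56e-05), and Pld3, a lysosomal exonuclease, fell by 1.01 (adjusted p = 0.000154).

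Of 26 genes for sorting and activation of lysosomal enzymes, 5 rose and 5 fell, and the median was -0.27. The AP-1 subunit Ap1m1 and the retromer subunits Vps29 and Vps35 rose by 0.98 (adjusted p = 1.25e-05), 0.76 (0.000748) and 0.60 (0.000488). The AP-3 subunits Ap3d1 and Ap3s1 and the AP-1 subunit Ap1b1 fell by 0.44 (adjusted p = 0.0160), 0.99 (0.0185) and 0.52 (0.0181). The Ap1b1 call ended without control replicate 1 (-0.50, adjusted p = 0.0601), without control replicate 3 (-0.48, 0.0514) and without the labelled knockout replicate 3 (-0.38, 0.0606). For Ap3s1 it ended without control replicate 2 (-0.91, adjusted p = 0.0610), without control replicate 3 (-0.82, 0.0771) and without the labelled knockout replicate 3 (-0.83, 0.0702). Ap3s1 also shares sequence with pseudogenes and is less certain. With library totals in place of TMM none of these falls was called (Ap3d1 -0.27, adjusted p = 0.209; Ap3s1 -0.79, 0.0829; Ap1b1 -0.33, 0.242). The Ap3d1 value was -0.01 with the length-dependent offset (adjusted p = 0.963).

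Of 22 genes for TFEB, its relatives and the mTORC1 machinery on the lysosome's surface, 21 were tested, 6 rose, 6 fell and the median was 0.12. Lamtor5 and Lamtor2, subunits of the Ragulator complex that anchors mTORC1, rose by 1.61 (adjusted p = 2.55e-06) and 1.26 (adjusted p = 4.66e-06), and Rheb, the GTPase that activates mTORC1, rose by 0.99 (adjusted p = 3.11e-05). Rragc, a Rag GTPase that recruits it, fell by 1.95 (adjusted p = 9.12e-06), the mTORC1 subunit Rptor by 0.91 (adjusted p = 0.000600) and its inhibitor Tsc1 by 0.95 (adjusted p = 0.00119). With the length-dependent offset the values of Rptor and Tsc1 were -0.38 (adjusted p = 0.0584) and -0.42 (adjusted p = 0.0833). Of the transcription factors themselves, named after their values were seen, Tfeb, Tfe3 and Mitf were not called and Tfec fell. Tfeb was at 1.79, 1.83 and 1.85 CPM in the group labelled RhoA knockout, against 1.67, 0.871 and 0.865 CPM in the controls (0.68 ± 0.37, adjusted p = 0.164), and Tfe3 had a difference of -0.31 (adjusted p = 0.0876) and Mitf one of 0.63 (adjusted p = 0.605). Tfec, at 1.04 CPM at most, had a difference of -1.87 ± 0.66 (adjusted p = 0.0377).

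Among 29 genes for fusion and positioning of lysosomes, 27 were tested, 7 rose, 5 fell and the median was 0.18. Snapin, a part of the BORC complex that moves lysosomes along microtubules, Vamp8, a SNARE protein of late endosomes, and Rab7, the GTPase of late endosomes, rose by 1.47 (adjusted p = 1.70e-06), 1.42 (1.51e-05) and 0.91 (3.11e-05). Ilf2, a neighbour that overlaps Snapin, held up to 174% of its count, so Snapin is less certain. Pikfyve, which makes a phosphoinositide of late endosomes, and the tethering subunits Vps39 and Vps11 fell by 1.10 (adjusted p = 0.00130), 0.91 (0.00248) and 0.69 (0.00401). With the length-dependent offset Pikfyve was at -0.53 (adjusted p = 0.0672), and with library totals Vps11 was at -0.52 (adjusted p = 0.0583).

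**Figure D4:**
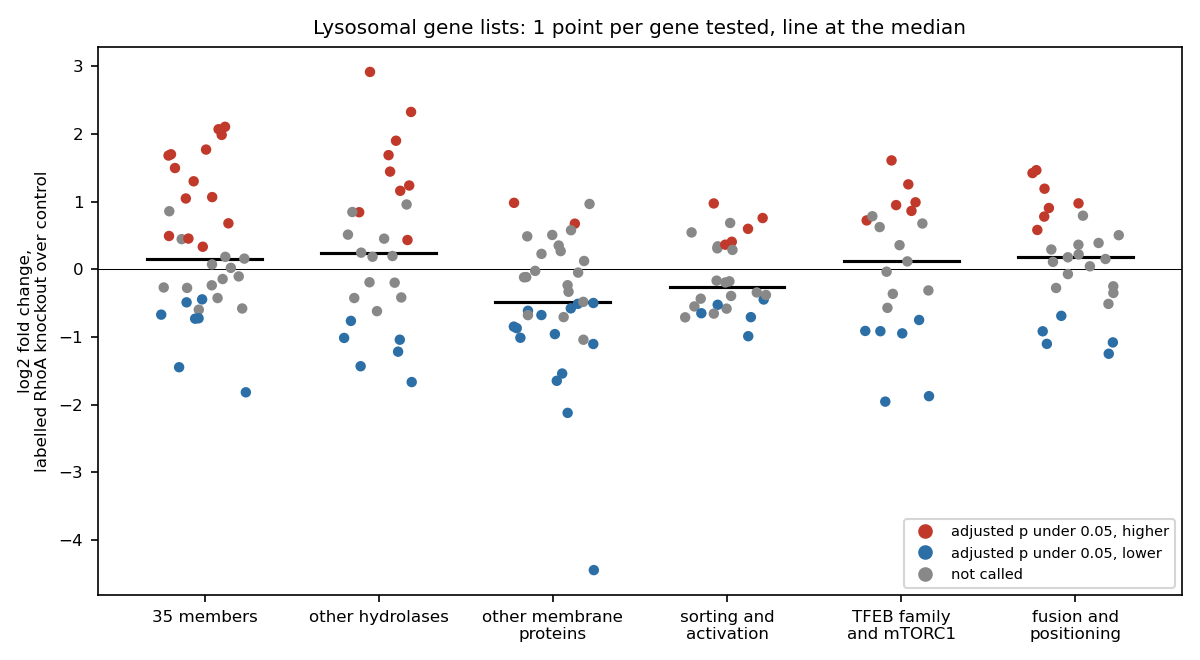
Log2 fold change, libraries labelled RhoA knockout over control, of every tested gene in the 35-gene set and in the 5 other lysosomal lists, with a bar at each list's median. The medians lie at 0.16 for the 35 genes, 0.25 for other hydrolases, -0.49 for other membrane proteins, -0.27 for sorting, 0.12 for TFEB and mTORC1 and 0.18 for fusion and positioning.

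Gene length moved with the fold changes over all genes. With the tested genes cut by exon length into 5 bins of like size, the median log2 fold change from the shortest to the longest bin was 0.32, 0.26, 0.04, -0.19 and -0.47. The 35 genes had a median exon length of 4204 bases, against 3856 over all genes tested, with 1, 6, 13, 10 and 5 of them in those bins. Cd68, the shortest of them at 1257 bases of exon, was at 0.88 with a length-dependent offset (adjusted p = 6.42e-05), and Npc1, with 11317 bases, at -1.30 (adjusted p = 9.72e-05). With that offset 15 of the 35 rose and 8 fell, Galc was called higher (1.40, adjusted p = 0.0101), Lamp1 was called lower (-0.51, adjusted p = 0.00292), Lamp2 was called higher (0.33, adjusted p = 0.0421) and Asah1 was not called (0.20, adjusted p = 0.193).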

How the data were processed

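Gene-level raw counts for 6 libraries and 55487 genes were used as the authors deposited them. The submitters' processing notes name GRCm38 as the genome build, and the sources used here do not give the aligner, the counter, its strand setting or how multiply mapped reads were treated. Per the labels' protocols, Trizol RNA went into Illumina libraries. IDs were matched to GENCODE M21. Groups were compared with edgeR 4.0.16 in R 4.3.3 (TMM factors, filterByExpr, robust dispersion and quasi-likelihood fits, Benjamini-Hochberg adjustment over 12930 genes, threshold 0.05). SE was computed as the absolute log2 fold change over the root of F. DESeq2 1.42.0 was an alternative. Near-identical copies were sought with blastn 2.17.0 at 95% identity over at least 200 bases. A floor of 3 counts was 0.0336 to 0.0513 CPM; it covers counting error only, while SE and SD cover the spread between libraries.

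Members and lists were chosen with earlier results of these data known. Values in every library are given for genes called at a log2 fold change of 0.58 or more in size and for the 2 of each class with the most CPM per kb of exon; of each other list, up to 3 called genes a direction with the smallest adjusted p are named. A few genes and 2 partner ratios that these rules and the plan cover are not reported here. Counts between 8 and 40 that were multiples of 4 occurred 1.249 to 1.463 times as often as adjacent counts. Scripts were tested on simulated data. Protein sequences were not used here.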

Additional observations from a re-analysis of the deposited data

How the results depend on the processing

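Of the 21 called genes of the 35, 12 kept direction and call in every one of the 14 alternatives that tested them: Hexa, Psap, Gm2a, Gusb, Arsb, Sgsh, Man2b1, Fuca1, Npc1, Cd68, Laptm5 and Cln3. With library totals in place of TMM, the median of all genes was 0.15 against -0.03, 59.8% of calls were higher against 48.5%, 16 of the 35 rose, with Gla and Galc added, and 2 fell, without Galns, Naglu, Neu1, Gaa and Grn, and 37 of the other lysosomal genes rose and 21 fell. With a filter of 10 CPM in 3 libraries and TMM recomputed, 1290 genes rose and 1334 fell of 3732 tested. Of 24 lysosomal genes tested then, 8 rose and 9 fell, Lipa (0.19), Asah1 (0.07), Acp2 (0.42) and Scarb2 (0.23) lost their calls, and 19 other lysosomal genes fell of 62 tested. The median of the 3732 genes was then 0, against 0.26 for them in the fit over 12930 genes, so the values are centred lower. Leaving out 1 library gave 12 to 15 rises and 6 to 8 falls among the 35, 26 to 32 and 26 to 33 among other lysosomal genes, and 2286 to 2673 and 2403 to 2640 among all. Without replicate 3 of both groups, added after seeing the data, the 35 had 13 rises and 6 falls. DESeq2 gave 14 and 7.

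Signs turned, uncalled in these settings, for Glb1 (-0.24 under that filter, -0.13 with the length offset, -0.11 to 0.13 when 1 library was left out), Arsa (-0.64 to 0.87 when 1 was left out, 0.67 without both replicates 3), Ids (-0.21 to 0.45, and -0.34 without both replicates 3), Tpp1 (-0.19 under the filter, -0.042 to 0.13, and -0.011 without both replicates 3) and Ppt1 (0.072 with library totals). Lamp2 was 0.038 with library totals and 0.33, called, with the length offset. The causes were not tested.

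Same-numbered libraries deviated together with correlations of -0.006, 0.028 and 0.014, which shows no pairing by number. So few libraries cannot settle whether those of the same number were prepared together. With a replicate block, 14 of the 35 rose and 8 fell, 32 and 34 of the other lysosomal genes and 2634 and 2738 of all genes; Lamp1 was then called (-0.27, adjusted p = 0.0429) and Arsa was at 0.11. Depth limits the genes of a few CPM at most, such as Arsa, Galc, Manba, Smpd1, Ids and Sgsh.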
